A study of Homo sapiens with 4 samples.

Results

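The genes described here are 9 genes of antigen presentation, chosen by symbol: HLA-B, HLA-C, B2M, TAP1, TAP2, TAPBP, PSMB8, PSMB9 and HLA-DMB. All 9 were among the 26255 gene symbols listed for each library. Of these, 8 had at least 1 FPKM (fragments per kilobase of transcript, scaled to mapped fragments) in 2 or more libraries and were tested with the 12701 genes that met this minimum. PSMB8 did not meet it and is given by its values alone. RNA had been sequenced from HCT116, an established human colorectal cancer line. The EV control group held 2 libraries labelled as empty vector-transfected, whereas their file headers read AAVS1, the name of a site often targeted as a neutral control. The KO group held 2 libraries of C14orf159 knockout cells, whose headers read sgDGLUCY, after the current symbol of that gene. No treatment is named for either group. The labels do not say whether replicates were separate cultures or clones, so the p-values rest on a spread between libraries that could be technical.

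Nucleated cells show peptides from their own proteins on class I molecules, each made of an HLA heavy chain and β2-microglobulin. Proteasomes cut the proteins, the TAP transporter carries the peptides into the endoplasmic reticulum, and tapasin holds the empty class I molecule beside it for loading. Interferons raise the transcription of much of this pathway, including catalytic subunits that turn the constitutive proteasome into the immunoproteasome. Class II molecules, which HLA-DM helps to load, are usually made by professional antigen-presenting cells under the control of CIITA. Colorectal cancers with defective mismatch repair, as in HCT116, often lose parts of the class I pathway.

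Of the 9 genes, 8 lie in the major histocompatibility complex (MHC) on chromosome 6, and B2M lies on chromosome 15. TAP1 and PSMB9 are transcribed away from each other, and 487 bases separate the PSMB9 start site from the TAP1 start nearer to it. The sequences upstream of these 2 starts are shown because they make up that whole interval. HLA-DMB is shown because it had the largest difference in the tests below, and B2M because it was the most abundant member. Each run is the 250 bases before the start, 5′ to 3′ on the gene's own strand, from RefSeq (GRCh38.p14, which is not the hg19 build of the deposited values). TAP1 is chr6:32853705-32853954 on the minus strand, PSMB9 chr6:32853942-32854191 on the plus strand, HLA-DMB chr6:32941029-32941278 on the minus strand and B2M chr15:44711267-44711516 on the plus strand. Capitals mark matches, on either strand, to the motifs named next.
TAP1: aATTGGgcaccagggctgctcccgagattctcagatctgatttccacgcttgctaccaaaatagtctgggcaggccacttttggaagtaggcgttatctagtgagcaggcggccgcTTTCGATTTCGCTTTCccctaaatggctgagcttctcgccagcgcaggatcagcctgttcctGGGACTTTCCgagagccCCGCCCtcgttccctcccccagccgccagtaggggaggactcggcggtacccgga
PSMB9: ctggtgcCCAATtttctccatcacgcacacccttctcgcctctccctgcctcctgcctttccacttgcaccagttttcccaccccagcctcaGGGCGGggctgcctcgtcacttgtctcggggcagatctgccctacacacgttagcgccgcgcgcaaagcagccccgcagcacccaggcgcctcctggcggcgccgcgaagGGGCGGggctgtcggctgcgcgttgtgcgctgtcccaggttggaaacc
HLA-DMB: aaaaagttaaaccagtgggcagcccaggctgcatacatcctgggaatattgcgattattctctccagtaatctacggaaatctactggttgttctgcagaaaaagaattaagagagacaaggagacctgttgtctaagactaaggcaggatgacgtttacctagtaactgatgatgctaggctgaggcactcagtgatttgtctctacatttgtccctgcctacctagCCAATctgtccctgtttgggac
B2M: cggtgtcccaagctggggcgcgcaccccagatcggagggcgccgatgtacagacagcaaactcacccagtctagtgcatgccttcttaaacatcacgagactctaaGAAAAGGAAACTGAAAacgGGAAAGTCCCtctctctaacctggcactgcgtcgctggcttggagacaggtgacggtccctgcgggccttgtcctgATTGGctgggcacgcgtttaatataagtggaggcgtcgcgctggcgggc

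The core of the interferon-stimulated response element was searched as GAAA, any 2 bases and GAAA, and the STAT site core as TTC, any 3 bases and GAA. The NF-kB site core was searched in a strict form (GGG, any 2 bases and TTTCC) and a loose form (GGG, any 3 bases and TTCC), so that every strict match is also a loose match. CCAAT (Y box core) and GGGCGG (GC box) were searched as well. All 9 genes were in the RefSeq table, with 11 start sites in all, and the window ran from 250 bases before to 50 bases after each start. The interferon core was found at 5 of the 9 genes (B2M, TAP1, TAP2, TAPBP and PSMB8), against 3.57% of the 35116 windows in the table. B2M, TAP1 and TAPBP held the strict NF-kB core as well, which 1.91% of all windows hold, and 6.52% hold the loose form. In TAP1 the overlapping interferon cores began 134 and 128 bases before the start nearer PSMB9 and the NF-kB core 72 bases before it. HLA-DMB held a single Y box core, 22 bases before its start, and no other match. PSMB9 held a Y box core and GC boxes in its own window, and the interferon cores of the shared interval lay in the TAP1 window. Y box cores were found at 6 members and 34.6% of all windows, GC boxes at 6 members and 45% of all windows, and STAT cores at TAP1 and PSMB8 and 7.66% of all windows. Members were counted by gene and the background by window, and TAP1 and PSMB8 each had more than 1 window. These are matches of exact letters and show no binding. Variant forms of an element were not searched, so a gene without a match, such as HLA-B or HLA-C for the interferon core, may hold one.

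**Figure D1:**
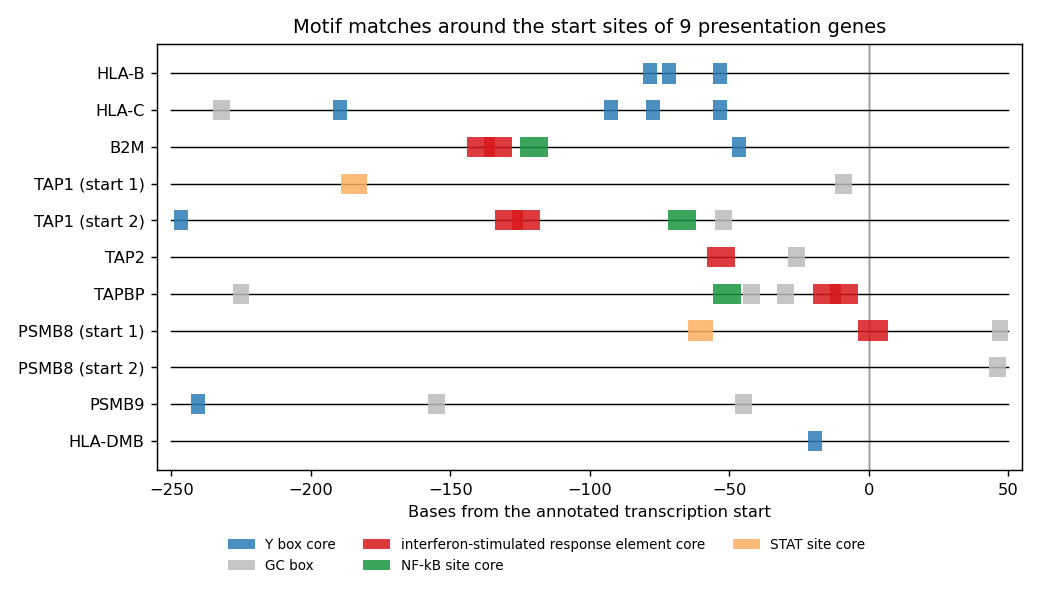
Motif matches from 250 bases before to 50 bases after the 11 annotated start sites of the 9 genes; the x axis gives bases from the start, and each coloured block is a match on either strand. Interferon-stimulated response element cores (red) appear at B2M, TAP1, TAP2, TAPBP and PSMB8, and HLA-DMB has 1 match, a Y box core.

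C14orf159 itself, the targeted gene, was measured at 16.2 and 16.4 FPKM in EV control 1 and 2, 2.52 in KO 1 and 10.8 in KO 2. KO 1 thus kept 15.5% and KO 2 66.2% of the EV control mean, and the KO libraries were not alike at this gene (difference -1.42, SE 0.57, limma-trend adjusted p = 0.314). Over all tested genes the median absolute log2 difference was 0.07 within the EV control group and 0.17 within the KO group. Each KO library is therefore also given alone. Depth was roughly estimated at 12.5 to 13.4 M fragments (mega) per library, from low FPKM values of single-transcript genes within a preset window. The window bounds the estimate, so it cannot show how alike the depths were. In the comparison of the groups, 7 genes were higher and 7 lower at an adjusted p under 0.05, or 0.0551% of tested genes in each direction (limma-trend, Benjamini-Hochberg). None of the 8 tested members was among them. Before adjustment, 3 members (HLA-DMB, PSMB9 and TAP1) were higher and 0 lower at p under 0.05; the background was 9.23% higher and 7.22% lower. The count fell to 2, without TAP1, under median-of-ratios scaling (TAP1 unadjusted p = 0.0518), quantile normalization (0.0823), limma without the trend (0.0613) and the replicate block (0.0872), and without EV control 1 (0.225) or EV control 2 (0.207). At the 5 FPKM filter HLA-DMB was not tested, and TAP1 (limma-trend unadjusted p = 0.0433) and PSMB9 (0.00474) stayed under 0.05. Without KO 1 the difference was larger for HLA-B (0.54), HLA-C (0.28), B2M (0.15), TAP2 (0.22) and PSMB9 (0.89). It was lower for TAP1 (0.16), TAPBP (-0.07) and HLA-DMB (1.04). In the main fit, the median log2 difference of the 8 tested members was 0.19, and that of all tested genes 0.00307. All 8 had at least 1 FPKM in each of the 4 libraries.

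**Figure D2:**
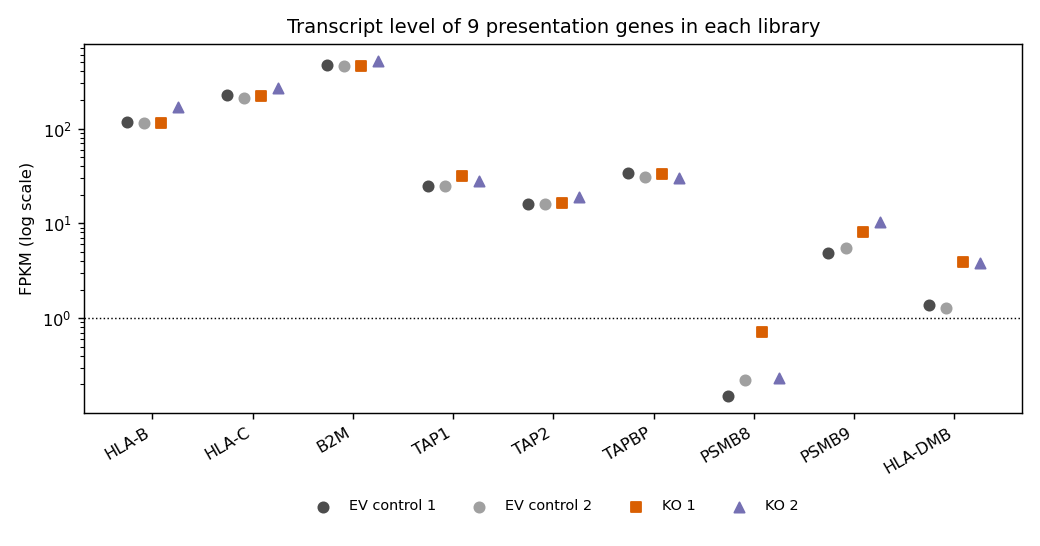
FPKM (log axis) of the 9 genes in each library; grey circles are EV control, squares KO 1 and triangles KO 2, and the dotted line marks 1 FPKM. B2M is highest at 458 to 519 FPKM, PSMB8 lies below the line in all libraries, and HLA-DMB is near 1.3 FPKM in the controls and above 3.7 in both KO libraries.

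HLA-DMB and PSMB9 were the members with the largest differences, and both were higher in each KO library than in either control. In bulk RNA, more cells with a transcript and more of it per cell cannot be told apart. HLA-DMB encodes the β chain of HLA-DM, which exchanges peptides on class II molecules. Its level was 1.38 and 1.29 FPKM in the controls and 3.91 and 3.80 in KO 1 and KO 2. The groups did not overlap, and the KO libraries, at 292% and 284% of the EV control mean, were close to each other. The difference was 1.05 on the log2(FPKM + 1) scale (SE 0.11), which understates the change of low genes. It missed the threshold (limma-trend, adjusted p = 0.116; unadjusted p = 0.000271). These levels are low: with the median length of its coding transcripts, they correspond to roughly 14, 13, 37 and 37 fragments. With each KO library alone against the controls, HLA-DMB was higher with adjusted p = 0.0130 in KO 1 and 0.0128 in KO 2 (limma-trend). A lone library is assumed there to vary like the controls, although the KO replicates were farther apart over all genes, and 6.29% and 10.9% of tested genes were called higher in KO 1 and KO 2 (6.94% and 6.62% lower).

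HLA-DMA, the α chain partner of HLA-DMB in HLA-DM, stood at 9.83 and 10.3 FPKM in the controls, 10.6 in KO 1 and 13.7 in KO 2. Its difference was 0.24 (SE 0.14, limma-trend adjusted p = 0.440). HLA-DMA was thus 7.10 and 7.98 times as abundant per length as HLA-DMB in the controls, and 2.70 and 3.60 times in KO 1 and KO 2. The ratio was lower in both KO libraries than in either control.

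PSMB9 encodes the immunoproteasome subunit β1i, which takes the place of PSMB6. PSMB9 stood at 4.90 and 5.48 FPKM in the controls and at 8.14 and 10.4 in KO 1 and KO 2. The groups did not overlap, and KO 2 was farther from the controls (201% of their mean) than KO 1 (157%). The difference was 0.72 (SE 0.14) and did not pass (limma-trend, adjusted p = 0.183; unadjusted p = 0.00404). With each KO library alone, the difference was 0.56 in KO 1 and 0.89 in KO 2. PSMB9 was estimated from roughly 50, 57, 79 and 105 fragments in the controls, KO 1 and KO 2.

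PSMB8, the subunit β5i that replaces PSMB5, was close to the limit of detection. It stood at 0.151 and 0.220 FPKM in the controls, 0.720 in KO 1 and 0.233 in KO 2, or roughly 2, 3, 10 and 3 fragments. KO 1 was the high library, and KO 2 lay next to the upper control. At this depth KO 2 could not be told from the controls, and KO 1 has no replicate check. Per length, PSMB9 was 32.4 and 24.9 times as abundant as PSMB8 in the controls, 11.3 times in KO 1 and 44.7 times in KO 2. The antisense gene PSMB8-AS1 stood at 0.515, 0.251, 0.683 and 0.184 FPKM, and 18.2% of the 50-base stretches of PSMB8 lie on the opposite strand of its GENCODE release 29 transcripts. Since the use of strand in counting is not given, reads from that overlap cannot be assigned to either gene. The overlap with PSMB8-AS1 was 8.43% for TAP1, on the opposite strand, and 2.89% for PSMB9, on the same strand.

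Each immunoproteasome subunit was next set against the constitutive subunit it replaces, within each library. PSMB9 amounted to 2.15% and 2.38% of PSMB6 in the controls and to 3.82% and 4.54% in KO 1 and KO 2. The groups did not overlap. The log2 ratio, with 1 added to each FPKM, was -5.22 ± 0.085 in the controls and -4.44 ± 0.15 in the KO libraries (SD, n = 2 per group; exact two-sided permutation p = 0.333, the smallest that 2 against 2 libraries can give). PSMB8 amounted to 0.0681% and 0.104% of PSMB5 in the controls, 0.319% in KO 1 and 0.0970% in KO 2, so that KO 2 lay between the controls. PSMB10, the subunit β2i, amounted to 15.8% and 17.3% of PSMB7 in the controls, 10.3% in KO 1 and 17.7% in KO 2. KO 1 was the low library there and the high library for PSMB8. The difference of log2 ratios was 0.19 for PSMB8 and -0.28 for PSMB10 (exact two-sided permutation p = 1 for each), and without KO 1 they were -0.094 and 0.089. The value for PSMB8 also depended on the amount added to FPKM and was 0.36 with 0.5 and 0.77 with 0.1.

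**Figure D3:**
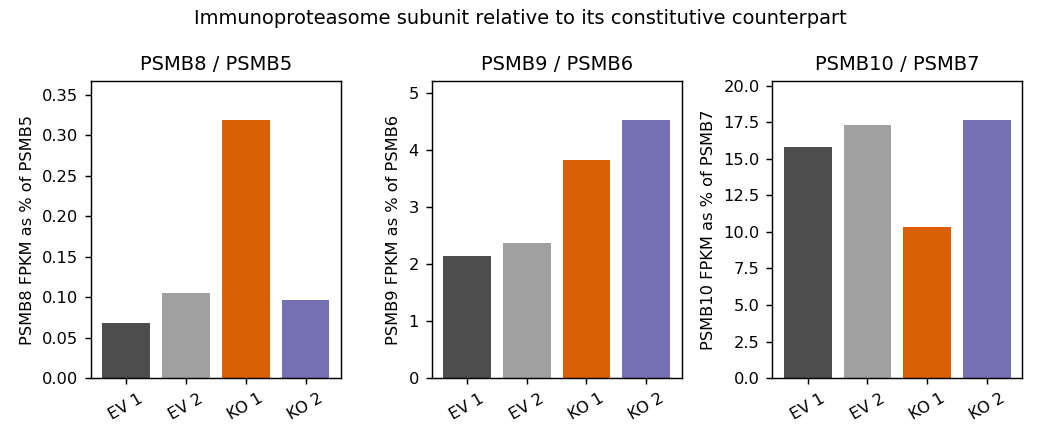
FPKM of each immunoproteasome subunit as a percentage of the constitutive subunit it replaces, 1 bar per library, with a y axis of its own from 0 in each panel. PSMB9 is at 3.82% and 4.54% of PSMB6 in KO 1 and KO 2 against 2.15% and 2.38% in the controls; PSMB8 is high in KO 1 alone and PSMB10 low in KO 1 alone.

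Genes of the constitutive 20S core lay close to the control level. PSMB5 stood at 222, 211, 226 and 240.3 FPKM in library order (both controls, then KO 1, then KO 2), PSMB6 at 228, 231, 213 and 229.8, and PSMB7 at 158.9, 151, 166 and 165. All 14 constitutive subunits were tested, 0 passed over all genes, and by unadjusted p under 0.05 there were 0 in either direction. Their median log2 difference was 0.08, with -0.04 in KO 1 and 0.15 in KO 2. The smallest p-values fell on PSMA1 (191, 195, 213 and 218 FPKM) and PSMA6 (162, 156, 172 and 184 FPKM).

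The transporter genes TAP1 and TAP2 lay above both controls in both KO libraries, the groups overlapped for tapasin, and none of these genes passed. TAP1, a half-transporter and partner of TAP2, stood at 24.5 and 24.7 FPKM in the controls, 31.2 in KO 1 and 27.6 in KO 2. Both KO libraries lay above both controls, with KO 1 the higher at 127% of the control mean. The difference was 0.25 (SE 0.091, limma-trend adjusted p = 0.295, unadjusted p = 0.0446), and it was 0.33 with KO 1 alone and 0.16 with KO 2 alone. PSMB9, across the shared interval printed above, was by contrast higher in KO 2 than in KO 1. TAP2 stood at 16.1 and 16.0 FPKM in the controls, 16.4 in KO 1 and 18.9 in KO 2. The groups did not overlap, but KO 1 was at 102% of the control mean, and the difference was 0.12 (SE 0.098, limma-trend adjusted p = 0.561). TAPBP, which encodes tapasin, stood at 33.6 and 30.6 FPKM in the controls, 32.8 in KO 1 and 30.4 in KO 2. The groups overlapped (difference -0.02, SE 0.090, limma-trend adjusted p = 0.921). TAP1 was 1.52 and 1.54 times as abundant per length as TAP2 in the controls, 1.90 times in KO 1 and 1.46 times in KO 2.

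Class I heavy chains and β2-microglobulin were abundant in every library. B2M was at 472 and 460.1 FPKM in the controls, 458 in KO 1 and 519 in KO 2, and its mean level exceeded that of 98.4% of tested genes. The groups overlapped, since KO 1 was the lowest library and KO 2 the highest (difference 0.06, SE 0.11, limma-trend adjusted p = 0.790). HLA-B, a class I heavy chain, was at 118 and 115 FPKM in the controls, 113 in KO 1 and 171 in KO 2. KO 2 alone stood apart, at 146% of the control mean against 96.8% in KO 1. The difference of the groups was 0.25 (SE 0.21, limma-trend adjusted p = 0.573). With KO 2 alone against the controls it was 0.54 and with KO 1 alone -0.05, where a lone library has no spread of its own.

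HLA-C, also a class I heavy chain, was at 227 and 212 FPKM in the controls, 219.8 in KO 1 and 267 in KO 2. KO 1 lay between the controls and KO 2 above them (difference 0.14, SE 0.13, limma-trend adjusted p = 0.600). With KO 2 alone the difference was 0.28, and with KO 1 alone 0.00211. HLA-C was 1.93, 1.83 and 1.95 times as abundant per length as HLA-B in EV control 1, EV control 2 and KO 1, and 1.57 times in KO 2. Whether the KO libraries differ from each other at these genes was not tested, since each is a single library.

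Class I genes are close paralogs and differ between people and lines, and the reads were aligned to a reference genome, so their levels are uncertain. In GENCODE release 29 transcripts, 2.72% of the 50-base stretches of HLA-B and 5.38% of those of HLA-C occur on the same strand in transcripts of another gene. For TAP2 this share was 31.3% and for HLA-DMB 8.0%, each shared with an unnamed locus (AL669918.1 and AL645941.2), and for B2M and PSMB8 it was 0%. The share on the opposite strand of other genes' transcripts was 15.1% for HLA-B (AL671883.2), 0.46% for HLA-C and 4.35% for TAPBP. For PSMB8 this share was larger, at 18.2%, and for TAP1 it was 8.90%. Since the use of strand in counting is not given, these shares add to the uncertainty.

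**Figure D4:**
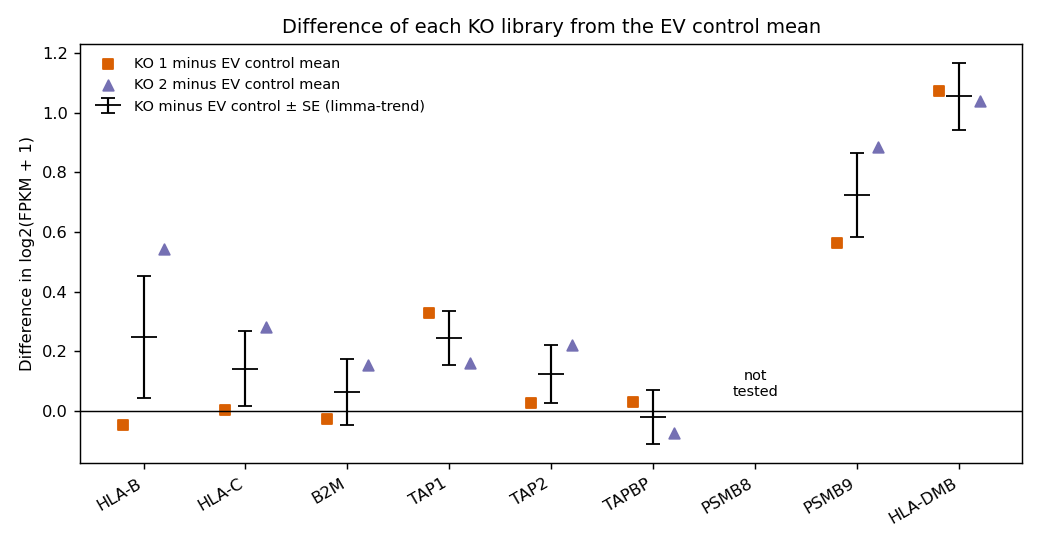
Difference from the EV control mean on the log2(FPKM + 1) scale for the 8 tested genes; squares are KO 1, triangles KO 2, and the black bar with whiskers is the limma-trend difference of the groups with its SE. HLA-DMB and PSMB9 are above 0.5 in both KO libraries, HLA-B is at -0.05 in KO 1 and 0.54 in KO 2, and TAPBP lies near 0.

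Both KO libraries lay above both controls at 4 of the 8 tested members (TAP1, TAP2, PSMB9 and HLA-DMB) and below them at 0, where 26.5% of all tested genes lay above and 25.6% below. PSMB8 lay above as well but was not tested. Both KO libraries also lay above both controls at 6 of 14 constitutive 20S subunits, and below at 0. The same held for 4 of 9 other tested genes of class II presentation (HLA-DRB1, HLA-DMA, RFX5 and RFXAP), with 0 below. Of 13 other tested genes of class I presentation, 1 lay above and 4 below. The order of the members by level was B2M, HLA-C, HLA-B, TAPBP, TAP1, TAP2, PSMB9, HLA-DMB and PSMB8 in all 4 libraries. Neighbours in this order did not overlap over the libraries, apart from TAPBP and TAP1, which were closest in KO 1 at 32.8 and 31.2 FPKM. The mean profile of the tested members, centred per gene, was -0.15 and -0.17 in the controls, 0.08 in KO 1 and 0.24 in KO 2. Over the 4 libraries, the tested genes outside the lists nearest to this profile by Euclidean distance were CAMTA1 (distance 0.0156), TRIM52-AS1 (0.0202), KHDRBS3 (0.0230), WSB2 (0.0245) and ANXA6 (0.0283). The members did not lie next to each other on this measure. The nearest other member of HLA-DMB was PSMB9, at rank 128 of 12700 genes, and the nearest to TAP1 was TAP2, at rank 3868.

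Further class I presentation genes were mixed in direction. Of 18 listed genes, 13 were tested, 0 passed over all genes, and 1 lay higher and 1 lower by unadjusted p under 0.05, with a median log2 difference of -0.03. ERAP1, the aminopeptidase that trims peptides in the endoplasmic reticulum, had 3.16 and 3.26 FPKM in the controls and 4.62 and 4.67 in KO 1 and KO 2. The KO libraries were close to each other (difference 0.42, SE 0.097, limma-trend adjusted p = 0.208). LNPEP, an aminopeptidase of endosomes, had 1.78 and 1.66 FPKM in the controls and 0.950 and 0.923 in KO 1 and KO 2 (difference -0.49, SE 0.13, limma-trend adjusted p = 0.221). LNPEP met the minimum of 1 FPKM through the controls alone, so the filter favoured this direction. CANX, the chaperone calnexin, had 243, 252, 221 and 199 FPKM in library order. HLA-F, a further class I heavy chain, had 10.7, 10.1, 10.5 and 16.3 FPKM (difference 0.32, SE 0.21, limma-trend adjusted p = 0.489). As at HLA-C, KO 1 lay between the controls and KO 2 above them. HLA-E, a non-classical heavy chain, had 64.1, 63.4, 59.8 and 69.9 FPKM. NLRC5, a transactivator of class I genes, was low at 1.77, 1.52, 1.41 and 1.43 FPKM.

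HLA-DMB was next read beside other genes of class II presentation. CIITA, the transactivator of class II genes, was listed at 0 in all 4 libraries, and CD74, the invariant chain, was between 0.161 and 0.257 FPKM. Of 19 listed genes of class II presentation, 9 were tested. The class II genes among these were HLA-DRA, HLA-DRB1 and HLA-DMA, and the others were RFX5, RFXANK, RFXAP, CTSL, LGMN and IFI30. Over all genes 0 passed, and 1 lay higher and 0 lower by unadjusted p under 0.05, with a median log2 difference of 0.11. That gene was HLA-DRB1, a class II β chain, with 1.05 and 0.816 FPKM in the controls and 3.11 and 1.94 in KO 1 and KO 2 (difference 0.85, SE 0.20, limma-trend adjusted p = 0.208). EV control 2 lay below 1 FPKM, so HLA-DRB1 met the minimum only with KO libraries counted, and the filter favoured this direction. Of its 50-base stretches, 9.92% occur in other genes, mostly in HLA-DRB5. HLA-DRA, the α chain partner of HLA-DRB1, had 2.10 and 1.55 FPKM in the controls, 3.85 in KO 1 and 1.84 in KO 2, so that KO 2 lay between the controls. RFXAP, a subunit of the RFX complex that binds class II promoters, had 1.52, 1.81, 2.50 and 1.94 FPKM.

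The position of the members in the MHC was used to ask whether neighbours differed as well. Between HLA-DRA and TAPBP, in RefSeq order, 39 genes were listed and 20 tested, among them TAP2, TAP1, PSMB9, HLA-DMB and TAPBP. At an unadjusted p under 0.05, 5 were higher and 0 lower: the members TAP1, PSMB9 and HLA-DMB, the class II gene HLA-DRB1, and RGL2. Of the 12 tested genes there that are neither members nor class II genes, RGL2 was thus the 1 higher and 0 were lower, where 9.23% of all tested genes were higher. BRD2, a bromodomain gene on the far side of HLA-DMA from HLA-DMB, had 109 and 109 FPKM in the controls and 99.97 and 100.7 in KO 1 and KO 2. It lay below the controls in both KO libraries (limma-trend adjusted p = 0.461). Of the 20 tested genes in this region, both KO libraries lay above both controls at 11 and below them at 3. Over all tested genes these shares were 26.5% and 25.6%. Those above were the members TAP2, TAP1, PSMB9 and HLA-DMB, the class II genes HLA-DRB1 and HLA-DMA, and RXRB, SLC39A7, HSD17B8, RING1 and RGL2. Of 41 MHC genes outside presentation, 40 were tested, 0 passed over all genes, and 2 lay higher and 1 lower by unadjusted p under 0.05, with a median log2 difference of -0.06. RNF5, a ubiquitin ligase gene, had 0.985 and 0.980 FPKM in the controls and 4.16 and 7.85 in KO 1 and KO 2 (difference 1.77, SE 0.27, limma-trend adjusted p = 0.156). It met the minimum of 1 FPKM through the KO libraries alone, so the filter favoured this direction. It is uncertain because 18.2% of its 50-base stretches occur in the pseudogene RNF5P1. IER3, an immediate early gene, had 385 and 362 FPKM in the controls and 642 and 477 in KO 1 and KO 2 (difference 0.57, SE 0.17, limma-trend adjusted p = 0.243). The lower gene was MRPS18B, a subunit of the mitochondrial ribosome, with 89.8 and 87.1 FPKM in the controls and 71.8 and 78.7 in KO 1 and KO 2 (difference -0.23, SE 0.086, limma-trend adjusted p = 0.296).

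**Figure D5:**
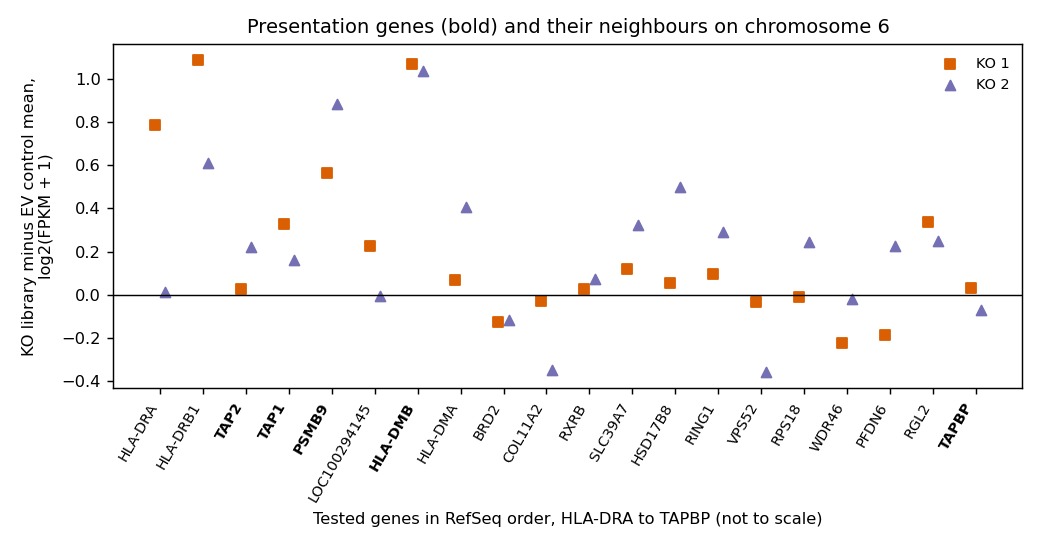
Difference of KO 1 (squares) and KO 2 (triangles) from the EV control mean, log2(FPKM + 1), for the 20 tested genes from HLA-DRA to TAPBP in RefSeq order, not to scale, with the members in bold. HLA-DMB is above 1 in both KO libraries, HLA-DMA next to it is at 0.07 in KO 1 and 0.41 in KO 2, and BRD2 beyond HLA-DMA lies below 0 in both.

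Interferon and NF-kB pathway genes, among them factors that bind motifs of the kinds above, were examined by list. Of 23 regulators, 22 were tested, 0 passed over all genes, and 0 lay higher and 1 lower by unadjusted p under 0.05, with a median log2 difference of 0.03. IRF1, a factor that binds interferon response elements, had 5.0 and 6.40 FPKM in the controls, 5.21 in KO 1 and 5.95 in KO 2. The groups overlapped. The lower gene was NFKB1, an NF-kB subunit, with 13.6, 13.2, 11.8 and 10.9 FPKM. IFNAR2, a chain of the type I interferon receptor, had 8.0, 8.69, 9.50 and 10.5 FPKM, with both KO libraries above both controls. IRF7, a factor of the type I interferon response, had 2.13, 1.76, 4.71 and 2.44 FPKM, with KO 1 the high library.

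Of 20 interferon-gamma response genes, 8 were tested and 3 were listed at 0 in all 4 libraries (GBP1, CXCL9 and CXCL10). Over all genes 0 passed, and 1 lay higher and 0 lower by unadjusted p under 0.05, with a median log2 difference of -0.01. The higher one was UBE2L6, the conjugating enzyme for the ubiquitin-like protein ISG15, with 19.6 and 18.4 FPKM in the controls and 25.5 and 29.5 in KO 1 and KO 2 (difference 0.51, SE 0.10, limma-trend adjusted p = 0.190). WARS, a tryptophanyl-tRNA synthetase, had 40.7 and 41.5 FPKM in the controls, 19.6 in KO 1 and 36.1 in KO 2. PARP9, an ADP-ribosyltransferase family member, had 5.77, 6.10, 7.34 and 5.94 FPKM. ICAM1, an adhesion molecule, had 2.28, 1.93, 2.66 and 0.418 FPKM.

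Markers of other cell types were checked because immune cells carry high levels of class II genes. PTPRC, CD3D, CD3E and MS4A1 were listed at 0 in all libraries, and the 8 lymphocyte markers summed to between 0.976 and 1.22 FPKM. The 8 myeloid markers summed to 4.66 and 3.70 FPKM in the controls and 3.88 and 4.37 in KO 1 and KO 2, with FCGR3A and AIF1 listed at 0. The 7 fibroblast and endothelial markers summed to at most 0.171 FPKM. None of these sums set the KO libraries apart from the controls. Of 8 epithelial markers 7 were tested, 0 passed over all genes, and 1 lay higher and 0 lower by unadjusted p under 0.05, and VIL1 was listed at 0 in 3 libraries. The higher one was EPCAM, an epithelial adhesion molecule, with 237 and 236 FPKM in the controls and 284 and 314 in KO 1 and KO 2 (difference 0.34, SE 0.096, limma-trend adjusted p = 0.238). KRT20, an intestinal keratin, had 1.80 and 1.63 FPKM in the controls and 1.23 and 1.149 in KO 1 and KO 2, with both KO libraries below the controls (limma-trend adjusted p = 0.325). The part of these markers in the differences of the members was not tested.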

How the data were processed

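Poly(A)-selected stranded RNA libraries of HCT116 cells, 2 EV control and 2 KO, were described in the labels' protocols (TruSeq stranded mRNA kit). The authors deposited 1 FPKM value per gene symbol and library. The headers name no unit, and FPKM was taken from Cuffnorm being the last tool named and from the values. Per the submitters' processing notes, the tools were Cuffnorm 2.2.1, TopHat2 2.0.13, SAMtools 0.1.19 and Bowtie2 2.2.3, with build hg19. Not given in the sources used here were the annotation, the strand setting and how libraries were scaled.

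Values were used as log2(FPKM + 1), for genes with at least 1 FPKM in at least 2 libraries, in limma 3.58.1 (R 4.3.3, lmFit, then eBayes with trend, group as the sole term). P-values were adjusted over all tested genes by the Benjamini-Hochberg method at 0.05, and the script was tested on simulated data. The moderated variance rests on 2.82 prior and 2 residual degrees of freedom. SD and SE are over 2 libraries per group, and differences are KO minus EV control. The value of 1 fragment was the median of FPKM times length in kb between 0.06 and 0.1, in 2008 genes with a single GENCODE release 29 transcript of 1000 to 6000 nt, which bounds the depths, so fragment numbers are rough. Fragment numbers used the median coding transcript length.

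Named were all members, the genes of each list with the smallest p-values (up to 4), and PSMB5, PSMB6, PSMB7, PSMB10, HLA-E, HLA-DMA, NLRC5, CIITA, IRF1 and BRD2. By the same rule, the 5 nearest genes averaging at least 5 FPKM were named. RGL2, PSMB8-AS1, CD74 and the genes listed at 0 were named after their values were seen. A gene of the class I list and one of the regulator list are not reported here and were left out of the list counts. Members and lists were chosen with earlier results of these data known. Alternatives were pseudocounts of 0.1 and 0.5, no filter, a 5 FPKM filter, scaling by median of ratios or by quantiles, a fit with no trend or a robust one, a replicate block and leaving out each library. A fit without small RNA genes, and leaving out libraries for the subunit ratios, were added after seeing the data.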

Additional observations from a re-analysis of the deposited data

How the results depend on the processing

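None of the 8 tested members passed in the fit of all 4 libraries under any alternative to the pseudocount, filter, scaling, variance model or block (limma-trend and its variants). HLA-DMB came nearest, with adjusted p from 0.0698 to 0.222 and a difference from 1.03 to 1.46, and it has no value at the 5 FPKM filter. PSMB9 had 0.71 to 0.82 (adjusted p 0.138 to 0.292). PSMB8 could be fitted only without a filter (0.30, adjusted p = 0.557). Leaving out 1 library at a time gave 1.03 to 1.08 for HLA-DMB, 0.56 to 0.89 for PSMB9, 0.16 to 0.33 for TAP1, 0.03 to 0.22 for TAP2, 0.00211 to 0.28 for HLA-C, -0.047 to 0.54 for HLA-B, -0.026 to 0.15 for B2M and -0.087 to 0.044 for TAPBP. HLA-B and B2M turned sign without KO 2, and TAPBP without EV control 1 and without KO 2. Members passed only where a KO library was left out. Without KO 1 these were HLA-DMB, PSMB9, HLA-B and HLA-C, and without KO 2 they were HLA-DMB, PSMB9 and TAP1. These fits assume that a lone KO library varies like the controls, although the KO replicates were farther apart over all genes. No member passed without EV control 1 or without EV control 2. The subunit ratios gave 0.67 to 0.88 for PSMB9, -0.094 to 0.48 for PSMB8 and -0.65 to 0.089 for PSMB10 with 1 library left out, and with pseudocounts of 0.5 and 0.1 that of PSMB8 was 0.36 and 0.77. Over all genes, 7 higher and 7 lower became 3 and 3 without a filter, 3 higher in limma without the trend, 4 lower with quantile normalization, and 0 and 0 without small RNA genes (1225 and 945 by unadjusted p under 0.05). Leaving out 1 library gave 6 to 1381 higher and 5 to 881 lower. With the replicate block, 4 were higher and 8 lower, and HLA-DMB had adjusted p = 0.132 and PSMB9 0.159. The labels do not say that a number pairs libraries, and deviations of same-numbered libraries had a correlation near 0 (r = -0.0046 over tested genes), so the numbers were not taken as pairs. No scaling moved the median of all genes by over 0.1. Depth limits PSMB8 and HLA-DMB most.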
